A study of Mus musculus with 2 samples.

Results

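The 10 genes described here encode interferon-inducible GTPases, which were followed through the single-cell RNA sequencing (scRNAseq) libraries of mouse salivary gland. They are *Iigp1*, *Igtp*, *Irgm1*, *Irgm2* and *Ifi47* of the immunity-related GTPases, *Gbp2*, *Gbp3*, *Gbp4* and *Gbp7* of the guanylate-binding proteins, and *Gvin3* of the very large inducible GTPases. They are 10 of the 50768 gene rows in the count matrices, and all 10 were found in both. The genes were picked by symbol after values of these same libraries had been seen, *Iigp1* and *Gvin3* for leading the NOD side in macrophages or fibroblasts. Their differences between the libraries are therefore given as a description and carry no test.

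The study set NOD/ShiltJ mice, an inbred strain that develops autoimmune diabetes and a Sjögren-like disease of the salivary glands, against outbred CD1 control mice. Each strain gave 1 library, made from the pooled submandibular and adjacent sublingual glands of female mice aged 20 weeks (3 mice by the labels), and neither strain was treated or carried a transgene. Before capture the cells were cleared of EpCAM-bearing epithelium, of Ter119-bearing red blood cells and of dead cells, and 1 NOD and 41 CD1 cells were epithelial-like. With 1 library per strain there is no replicate, and a difference between strains cannot be told apart from a difference between 2 pools of mice or 2 preparations.

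Interferon-gamma is secreted mainly by T cells and natural killer (NK) cells. Its receptor, built from the Ifngr1 and Ifngr2 chains, acts on target genes through gamma-activated sites in their promoters, while Irf1 and the type I interferon factors bind the interferon-stimulated response element. The immunity-related GTPases and guanylate-binding proteins are classical targets of this route and assemble on the vacuoles of intracellular bacteria and parasites. *Irgm1*, *Irgm2* and *Igtp* encode regulators that keep effectors such as *Iigp1* inactive on the cell's own membranes.

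Promoter sequences are shown because they carry the letters through which this route is known to act on these genes. The RefSeq promoter table (GRCm38.p6) held 7 of the 10 genes, and the 250 bases before each start were searched on both strands for the gamma-activated site TTCNNNGAA and for the interferon-stimulated response element, written GAAA, any 2 bases, GAAA. The response element was present in 6 of the 7 genes (*Gbp2*, *Gbp3*, *Gbp7*, *Igtp*, *Irgm1* and *Irgm2*), against 3.46% of the 27025 genes of the table. The gamma-activated site was present in 3 of the 7 (*Gbp7*, *Igtp* and *Irgm2*), against 8.13% of all genes, and both motifs together in the same 3, against 0.459% of all genes. *Ifi47* held neither in this window, and *Gbp3* held the response element at only 1 of its 2 listed starts. The last 120 bases before the start of 5 genes are printed 5′ to 3′ on the strand of the gene, with every match in capitals.
Igtp, chr11:58199436-58199555, plus strand: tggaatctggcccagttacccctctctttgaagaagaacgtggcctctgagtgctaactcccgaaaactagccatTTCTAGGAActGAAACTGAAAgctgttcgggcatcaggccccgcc
Irgm2, chr11:58214857-58214976, plus strand: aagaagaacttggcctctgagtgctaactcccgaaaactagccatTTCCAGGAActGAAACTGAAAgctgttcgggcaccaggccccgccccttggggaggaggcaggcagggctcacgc
Irgm1, chr11:48871421-48871540, minus strand: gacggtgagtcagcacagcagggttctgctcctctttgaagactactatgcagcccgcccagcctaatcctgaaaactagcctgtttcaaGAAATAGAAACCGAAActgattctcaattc
Gbp7, chr3:142530216-142530335, plus strand: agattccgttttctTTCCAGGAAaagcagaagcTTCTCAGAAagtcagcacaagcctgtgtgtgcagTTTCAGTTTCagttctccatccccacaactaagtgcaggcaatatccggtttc
Gbp2, chr3:142620543-142620662, plus strand: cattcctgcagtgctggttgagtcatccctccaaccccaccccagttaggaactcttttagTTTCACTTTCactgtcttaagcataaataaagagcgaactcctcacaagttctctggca
In *Igtp* and *Irgm2* the gamma-activated site was followed after 2 bases by the response element, 45 to 37 and 34 to 25 bases before the start in *Igtp* and 75 to 67 and 64 to 55 in *Irgm2*. These neighbouring genes shared an identical run of 38 bases. In *Irgm1* the capitals hold 2 overlapping response elements, which begin 30 and 24 bases before the start. *Gbp7* carried 2 gamma-activated sites, 106 and 87 bases before the start, and a response element on the opposite strand. A match is a match of letters and not a measured binding site.

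Expression was read from deposited UMI counts, in which each unique molecular identifier marks an RNA molecule that was captured. They gave 6500 NOD and 7014 CD1 cells, defined as barcodes with at least 500 UMIs and 300 genes, with medians of 5719.5 and 6495 UMIs per cell. The libraries shared 18 cell barcodes, 0.277% of the NOD and 0.257% of the CD1 cells. Cells were placed in a lineage when at least 3 marker UMIs from at least 2 marker genes were seen and at least 75% of the cell's marker UMIs belonged to that lineage. This gave 700 NOD and 2896 CD1 macrophage-like, 1077 and 2900 endothelial-like, 61 and 18 fibroblast-like, 1662 and 73 T-like, 477 and 335 NK-like, and 733 and 8 B-like cells. Among the 10 genes highest in each lineage over the rest, 4 to 6 were its own markers and none marked another lineage. The placement used these same markers, so this is no separate check of it. The unplaced cells numbered 1692 (26.0%) in NOD and 711 (10.1%) in CD1. The 18 CD1 fibroblast-like cells held 150707 UMIs and the 73 CD1 T-like cells 625316, against 19766692 in the CD1 macrophage-like cells, so CD1 values in fibroblast-like and T-like cells are far less precise. Levels are CPM (counts per 1000000) of the summed UMIs of a lineage, with exact 95% Poisson intervals, and ratios have 95% conditional binomial intervals, all of which cover counting error only. In a sum over cells, fewer cells expressing a gene and less RNA per cell cannot be told apart.

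All 10 genes together were higher in NOD than in CD1 in each of the 5 lineages compared. The summed level was 233 CPM (226 to 239.5) in CD1 and 1098 CPM (1067 to 1131) in NOD macrophage-like cells, and 1692 (1674 to 1710.3) and 2952 CPM (2909 to 2996) in endothelial-like cells. In fibroblast-like cells it was 192 CPM (129 to 276; 29 UMIs) in CD1 and 3268 CPM (3127 to 3413) in NOD. T-like cells held 724 (659 to 794) and 1659 CPM (1636 to 1683), and NK-like cells 498 (475 to 521) and 1209 CPM (1176 to 1243). The log2 ratios of NOD over CD1 were 4.09 (3.56 to 4.67) in fibroblast-like, 2.24 (2.18 to 2.30) in macrophage-like, 1.28 (1.20 to 1.36) in NK-like, 1.20 (1.06 to 1.33) in T-like and 0.80 (0.78 to 0.83) in endothelial-like cells. The intervals of T-like and NK-like cells overlapped and the others did not. The endothelial-like cells thus had the smallest ratio and, among the CD1 lineages, the highest summed level.

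**Figure D1:**
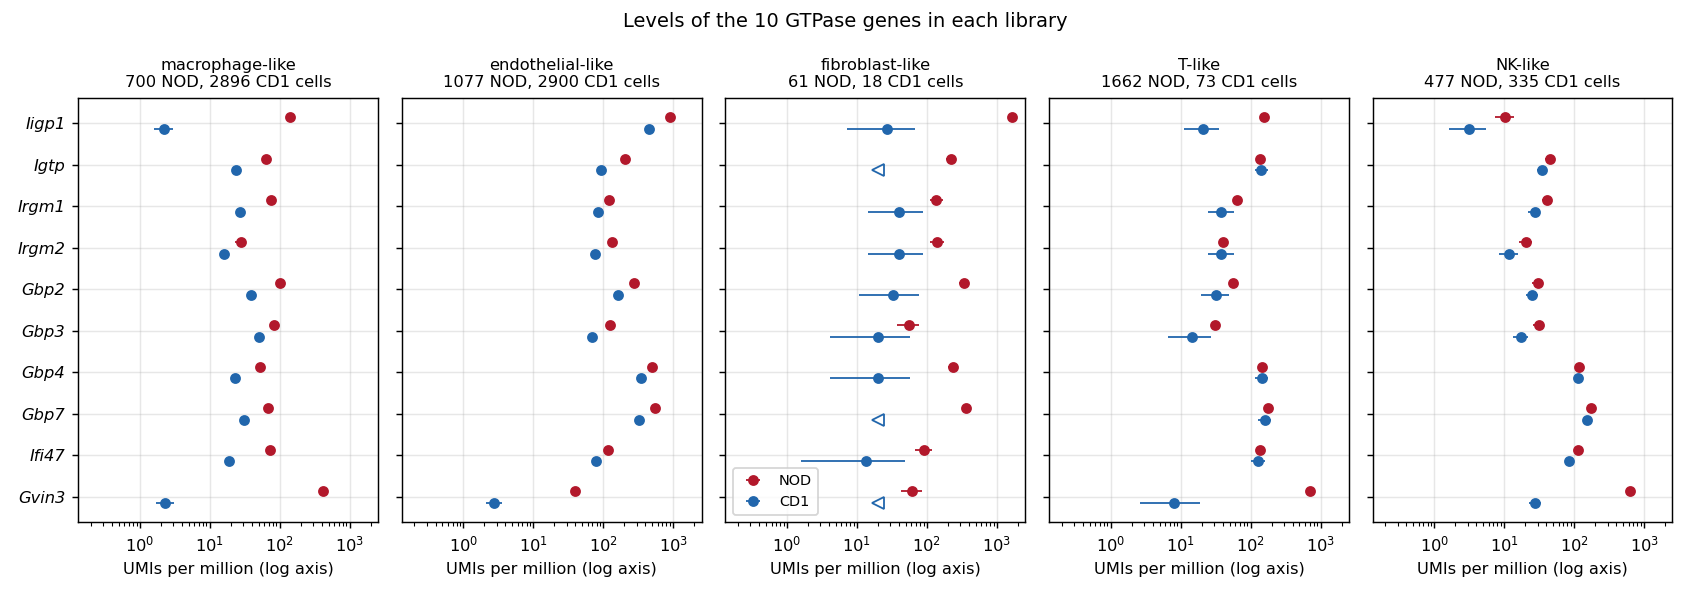
Each panel is 1 lineage, with the 10 genes as rows and the level in CPM on a log axis. Points are the NOD (red) and CD1 (blue) libraries with exact 95% Poisson intervals, and open triangles stand at the level of 3 UMIs where CD1 had none. In CD1, *Gvin3* was at 8.0 CPM or below in macrophage-like, endothelial-like and T-like cells. It had 0 UMIs in CD1 fibroblast-like cells, where 3 UMIs are 19.9 CPM. In NOD macrophage-like, T-like and NK-like cells it was at 415 to 714 CPM.

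A large part of the NOD sum in lymphocytes came from 1 gene. *Gvin3* held 8354 of the 19414 NOD UMIs in T-like cells and 2615 of 5043 in NK-like cells. Without *Gvin3*, the log2 ratio of the other 9 genes was 0.40 (0.26 to 0.54) in T-like and 0.31 (0.22 to 0.40) in NK-like cells, 1.57 (1.5 to 1.64) in macrophage-like, 0.79 (0.76 to 0.81) in endothelial-like and 4.06 (3.53 to 4.64) in fibroblast-like cells. The 8 genes left after *Iigp1* was also removed still had a ratio of 1.26 (1.18 to 1.33) in macrophage-like cells and 0.18 (0.04 to 0.32) in T-like cells. The 5 immunity-related GTPases had the larger ratio beside the 4 guanylate-binding proteins in macrophage-like cells, 2.09 (1.99 to 2.19) against 1.11 (1.01 to 1.21), and in endothelial-like cells, 0.89 (0.85 to 0.93) against 0.69 (0.65 to 0.72). In NK-like cells it was 0.49 (0.35 to 0.64) against 0.20 (0.09 to 0.31). T-like cells, 0.54 against 0.24, and fibroblast-like cells, 4.21 against 3.77, had the same direction with overlapping intervals. In macrophage-like cells *Iigp1*, picked for leading the NOD side, held 570 of the 1554 NOD and 44 of the 1752 CD1 immunity-related UMIs. It held 5372 of 8871 and 8911 of 15357 in endothelial-like cells, so the macrophage-like and endothelial-like contrasts rest in part on that choice. The other immunity-related GTPases had single ratios from 0.79 (*Irgm2*) to 1.93 (*Ifi47*) in macrophage-like cells, beside 0.76 (*Gbp3*) to 1.40 (*Gbp2*).

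Gene by gene, 8 of 10 were at least 2-fold higher in NOD macrophage-like cells, where 8.06% of 14487 genes with at least 20 UMIs passed the same fold. In endothelial-like cells it was 2 of 10 (background 8.07%), in fibroblast-like cells 10 of 10 (16.5%), in T-like cells 3 of 10 (9.47%) and in NK-like cells 2 of 10 (5.75%). The 2 genes in endothelial-like cells were *Igtp* and *Gvin3*, and the direction of *Gvin3* there turned under 1 treatment of free RNA. When each cell had the same weight, 4 genes passed in macrophage-like, 8 in fibroblast-like and 5 in T-like cells, and without doublets called by Scrublet 6 passed in fibroblast-like cells. With free RNA taken out, 1 passed in NK-like cells. None of the 10 was at least 2-fold lower in NOD in these lineages, where 5.37%, 4.18%, 5.76%, 7.4% and 4.39% of all genes were, in the same order. The interval of the ratio lay above 0 for 10, 10, 9, 5 and 8 genes in macrophage-like, endothelial-like, fibroblast-like, T-like and NK-like cells, against 23.6%, 28.3%, 11.1%, 12.3% and 19.1% of all genes. It lay below 0 for none of the 10, against 12.7%, 19%, 6.87%, 7.1% and 15% of all genes. The median ratio of the 10 genes was 1.40, 0.81, 3.05, 0.47 and 0.49 in the same order, beside medians over all genes of 0.06, 0.07, 0.16, 0.07 and 0.03. Since the genes were chosen from these libraries, the counts describe them and do not support a direction.

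**Figure D2:**
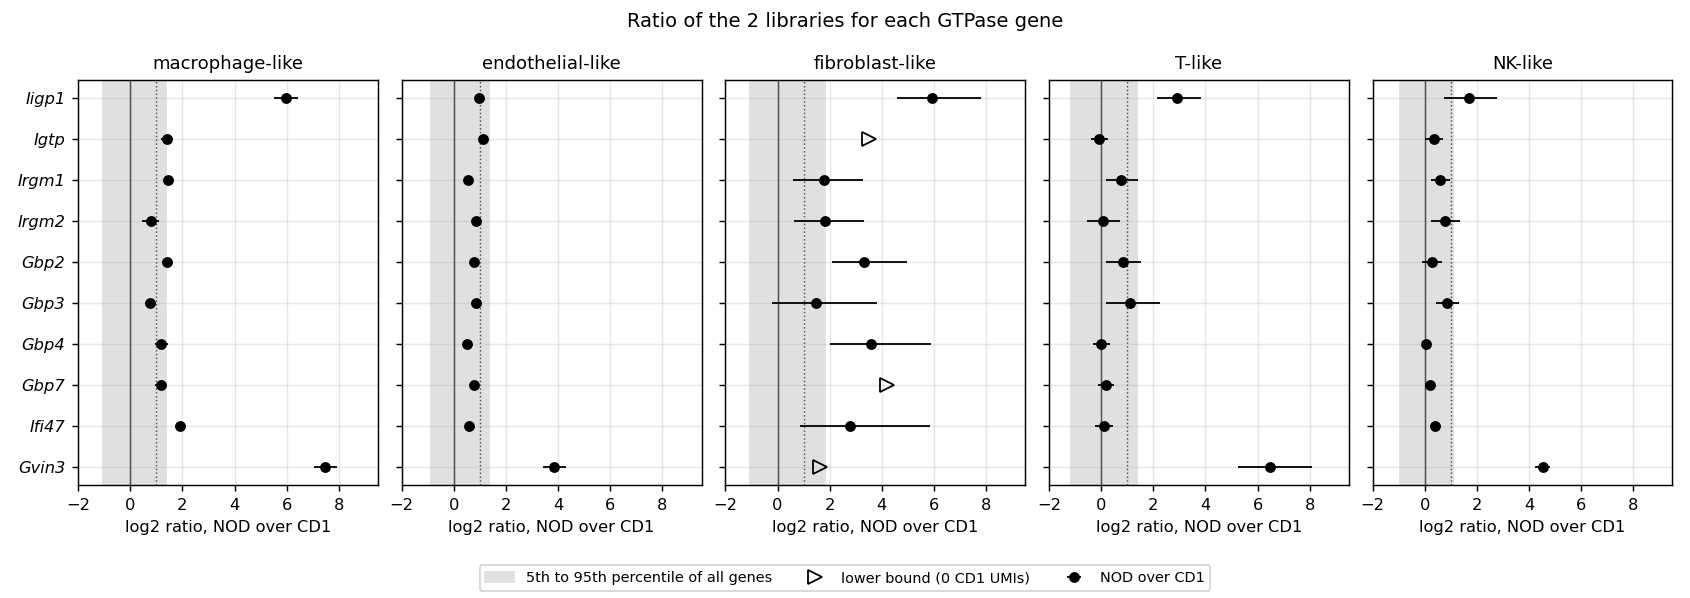
Log2 ratio of NOD over CD1 for each gene (rows) in each lineage (panels), with 95% conditional binomial intervals for counting error. The grey band spans the 5th to 95th percentile of all genes with at least 20 UMIs, the dotted line marks a 2-fold difference, and open triangles are lower bounds where CD1 had 0 UMIs. *Gvin3* and *Iigp1* stand furthest to the right in macrophage-like and T-like cells, while the other genes of T-like and NK-like cells lie inside the band.

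*Iigp1* encodes an effector that binds the vacuole membrane of intracellular parasites. Its level in the NOD and CD1 libraries was 1620.4 and 26.5 CPM in fibroblast-like, 885 and 457 CPM in endothelial-like, 157 and 20.8 CPM in T-like, 138 and 2.23 CPM in macrophage-like, and 10.3 and 3.19 CPM in NK-like cells. In NOD the order was fibroblast-like, endothelial-like, T-like, macrophage-like, B-like and NK-like, with overlapping intervals for T-like beside macrophage-like and for B-like beside NK-like cells. CD1 had its highest level in endothelial-like cells. The log2 ratio was 5.96 (5.51 to 6.43) in macrophage-like, 5.93 (4.57 to 7.81) in fibroblast-like, 2.92 (2.14 to 3.83) in T-like, 1.69 (0.75 to 2.75) in NK-like and 0.95 (0.90 to 1.00) in endothelial-like cells, so the lineage with the most CD1 message had the smallest ratio.

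The share of cells with an *Iigp1* UMI was set beside the levels. After each cell was thinned to 2000 UMIs, it was 63.0% (59.7 to 66.2) of NOD and 40.8% (38.8 to 42.8) of CD1 endothelial-like cells, beside 72.1% and 58.2% without thinning. In NOD fibroblast-like cells, whose level was higher, it was 50.0% (35.2 to 64.8) after and 72.1% without thinning. The intervals of these 2 NOD lineages overlapped after thinning. With cells thinned to 500 UMIs, which left out none, it was 31.1% (19.9 to 44.3) in NOD fibroblast-like and 27.4% (24.7 to 30.2) in NOD endothelial-like cells. In macrophage-like cells the share at 2000 UMIs was 13.2% (10.2 to 16.7) in NOD and 0.364% (0.157 to 0.716) in CD1, and 18.4% and 0.898% without thinning. Free RNA in the droplets held *Iigp1* in both libraries, at 121 CPM in NOD and 92.3 CPM in CD1 among barcodes of 10 to 100 UMIs. The CD1 macrophage-like cells, at 2.23 CPM, were far below that level, and the NOD macrophage-like cells, at 138 CPM, were near it. T-cell markers, which macrophages lack, summed to 1387 CPM in NOD empty droplets and 54.9 CPM in NOD macrophage-like cells, with all 5 markers detected. NOD B-like cells, deeper than the macrophage-like cells at medians of 5897 and 3447 UMIs per cell, had *Iigp1* in 1.73% of cells after thinning and in 3.41% without. Salivary secretory genes, in contrast, summed to 1507 CPM in NOD macrophage-like cells and 849 CPM in NOD empty droplets. With free RNA taken out by markers of other lineages the *Iigp1* ratio of macrophage-like cells was 8.40, and by secretory genes no value could be had. The rule that placed a cell in a lineage itself limits markers of other lineages, so the part of free RNA was not tested further.

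In NOD fibroblast-like cells *Iigp1* was seen in 44 of 61 cells, and the cell with the most held 131 of the 1007 UMIs. Without that cell the level was 1447 CPM. In CD1, 4 UMIs in 3 of 18 cells were all that was counted, and among the 10 CD1 cells deep enough for thinning 2 held *Iigp1*, against 24 of 48 in NOD.

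*Gvin3* belongs to a family of very large GTPases whose role is little known. It was at 714 CPM (699 to 729) in NOD and 8.0 CPM (2.60 to 18.7) in CD1 T-like cells, 627 and 27.3 CPM in NK-like cells, and 415 and 2.33 CPM in macrophage-like cells. NOD B-like cells held 1192 CPM (1159 to 1225), the highest of the 6 lineages, whereas the 5 UMIs of the 8 CD1 B-like cells all lay in 1 cell, which is too few for a comparison. In contrast to *Iigp1*, the lowest NOD levels were in endothelial-like cells, 39.9 CPM beside 2.77 in CD1, and in fibroblast-like cells, 61.1 CPM beside 0 UMIs in CD1. The log2 ratios were 7.48 (7.06 to 7.93) in macrophage-like and 6.48 (5.26 to 8.10) in T-like cells. They were 4.52 (4.24 to 4.82) in NK-like and 3.85 (3.42 to 4.30) in endothelial-like cells. With CD1 set at 3 UMIs the ratio was 1.62 in fibroblast-like cells, with a lower interval limit of 1.25.

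After thinning, *Gvin3* was seen in 79.1% of NOD B-like, 65.0% of T-like, 64.5% of NK-like and 36.6% of macrophage-like cells, against 1.39% of T-like, 5.50% of NK-like and 0.409% of macrophage-like CD1 cells. Without thinning the 4 NOD shares were 90.3%, 86.3%, 88.3% and 42.4%. NOD empty droplets held *Gvin3* at 292 CPM and CD1 empty droplets at 2.08 CPM. The NOD endothelial-like cells, in 5.49% of which it was seen, held T-cell markers at 72.3 CPM, and taking out the free RNA estimated from secretory genes left a log2 ratio of -2.23, while free RNA estimated from markers of other lineages left 3.40. The direction of *Gvin3* in endothelial-like cells therefore depends on how free RNA was treated. In NOD fibroblast-like cells 21 of the 38 UMIs came from 1 cell, and the level without it was 28.6 CPM.

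*Gvin3* lies among rows of near-identical copies, and the sources used here do not say how reads shared by copies were counted, so its level is uncertain. Over the 9 *Gvin* rows together the log2 ratio was 3.72 (3.60 to 3.85) in macrophage-like, 2.79 (2.50 to 3.09) in T-like, 2.44 (2.32 to 2.55) in NK-like and 2.08 (1.98 to 2.18) in endothelial-like cells. The copies did not all differ alike. *Gvin2* had ratios of -0.34 (-0.79 to 0.08) in macrophage-like and -0.22 (-1.02 to 0.71) in T-like cells, whereas *Gvin-ps6* was at 283 CPM in NOD and 89.6 CPM in CD1 T-like cells, with a ratio of 1.66 (1.28 to 2.07). *Iigp1* also has a neighbour of close sequence, *Iigp1c*, whose ratio was 4.23 (3.91 to 4.56) in macrophage-like and 0.38 (0.16 to 0.59) in endothelial-like cells. Summing both rows gave 5.01 and 0.92.

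The 3 regulators *Igtp*, *Irgm1* and *Irgm2* had smaller ratios than the effector *Iigp1* in macrophage-like cells, with no overlap of the intervals. In macrophage-like cells *Igtp* was at 63.8 CPM in NOD and 24 CPM in CD1, a log2 ratio of 1.41 (1.19 to 1.63), *Irgm1* at 75 and 27.3 CPM, 1.46 (1.25 to 1.66), and *Irgm2* at 27.7 and 16 CPM, 0.79 (0.47 to 1.10). In endothelial-like cells *Igtp* was at 204 and 93.8 CPM, a ratio of 1.12 (1.02 to 1.23) that was above that of *Iigp1* there, 0.95 (0.90 to 1.00). The *Igtp* levels of CD1 and NOD T-like cells had overlapping intervals, 142 CPM (114 to 175) and 135 CPM (129 to 142), and their *Irgm2* was at 38.4 and 40.1 CPM. In fibroblast-like cells *Igtp* was at 224 CPM in NOD, with 0 UMIs in CD1. With CD1 set at 3 UMIs it was 11.2-fold higher, a log2 ratio of 3.49 with a lower interval limit of 3.17. The NOD cell with the most held 32 of the 139 *Igtp* UMIs, and the level without that cell was 180 CPM. *Irgm1* there was at 137 and 39.8 CPM, a ratio of 1.78 (0.60 to 3.27) that turned to -0.56 when each cell had the same weight.

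*Ifi47*, another immunity-related GTPase, had the third-largest ratio in macrophage-like cells, 72.3 CPM in NOD and 19.0 CPM in CD1, a log2 ratio of 1.93 (1.70 to 2.15). It was highest in T-like cells in both libraries, 137 and 128 CPM, where the interval of the ratio held 0. In CD1 it was at 84.9 CPM in NK-like and 77.6 CPM in endothelial-like cells, with overlapping intervals.

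The guanylate-binding proteins coat bacteria and vacuoles that have been opened. Among them *Gbp7* and *Gbp4* had higher ratios in fibroblast-like and endothelial-like than in T-like and NK-like cells. The same held for *Igtp*, with 1.12 (1.02 to 1.23) in endothelial-like, -0.07 (-0.38 to 0.25) in T-like and 0.35 (0.02 to 0.69) in NK-like cells. Macrophage-like cells also had higher ratios than T-like and NK-like cells, 1.16 (0.96 to 1.37) for *Gbp7* and 1.20 (0.95 to 1.43) for *Gbp4*. These were above the ratios of endothelial-like cells. *Gbp7* was at 367 CPM in NOD fibroblast-like cells with 0 UMIs in CD1. With CD1 set at 3 UMIs it was 18.4-fold higher there, a log2 ratio of 4.20 with a lower interval limit of 3.89. The NOD cell with the most held 39 of the 228 *Gbp7* UMIs, and the level without that cell was 312 CPM. In endothelial-like cells *Gbp7* was at 556 and 323 CPM, with a log2 ratio of 0.78 (0.72 to 0.84). It was at 180 and 158 CPM in T-like cells, 0.18 (-0.11 to 0.49), and at 174 and 153 CPM in NK-like cells, 0.19 (0.03 to 0.35). *Gbp4* was at 240 and 19.9 CPM in fibroblast-like cells, from 3 CD1 UMIs, a log2 ratio of 3.59 (2.02 to 5.88). In endothelial-like cells it was at 492 and 347 CPM, 0.50 (0.44 to 0.57). It was at 144 CPM in T-like cells of both libraries and at 119 and 114 CPM in NK-like cells. After thinning, *Gbp7* was seen in 25.9% of NOD and 25.7% of CD1 NK-like cells, and in 55.1% and 39.4% of endothelial-like cells.

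Of the 4 guanylate-binding proteins among the 10 genes, *Gbp2* had the highest and *Gbp3* the lowest ratio in macrophage-like cells. There *Gbp2* was at 101 and 38.4 CPM, a log2 ratio of 1.40 (1.22 to 1.57), and *Gbp3* at 84.2 and 49.9 CPM, 0.76 (0.58 to 0.93). In fibroblast-like cells *Gbp2* was at 335 and 33.2 CPM, a ratio of 3.33 (2.09 to 4.97), whereas *Gbp3*, at 54.7 and 19.9 CPM from 3 CD1 UMIs, was the only 1 of the 10 genes whose interval there held 0. In T-like cells *Gbp3* rested on 9 CD1 UMIs, with 31.1 and 14.4 CPM.

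The number of the 10 genes seen in a cell was also counted, which depends on depth as well as on expression. With each cell thinned to 2000 UMIs, 3 or more of the 10 were seen in 57.7% of NOD and 33.5% of CD1 endothelial-like cells, in 16.1% and 1.59% of macrophage-like cells, in 32.1% and 11.1% of T-like cells, and in 19.0% and 3.36% of NK-like cells. In fibroblast-like cells it was 17 of 48 in NOD and 1 of 10 in CD1. *Gvin3*, picked for leading the NOD side, is part of these counts. At this depth it was seen in 65.0% of NOD and 1.39% of CD1 T-like cells, and in 64.5% and 5.50% of NK-like cells. No count without *Gvin3* was made. None of the 10 was seen in 68.9% of CD1 macrophage-like cells, against 34.1% in NOD. The thinning left out 246 of 700 NOD and 697 of 2896 CD1 macrophage-like cells. Without it, 3 or more genes were seen in 34.1% and 12.5% of macrophage-like, in 74.5% and 64.7% of endothelial-like, in 76.3% and 56.2% of T-like and in 66.9% and 54.6% of NK-like cells.

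**Figure D3:**
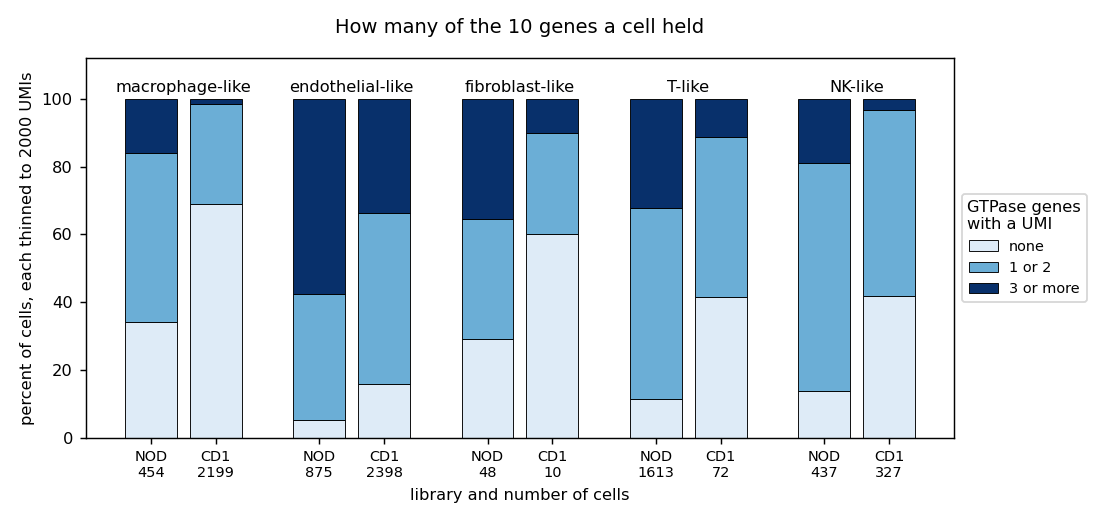
Share of cells (percent) in which none, 1 or 2, or 3 or more of the 10 genes had a UMI after each cell was thinned to 2000 UMIs, with the number of cells under each bar. The dark part is taller in NOD than in CD1 in each lineage, 57.7% against 33.5% in endothelial-like and 16.1% against 1.59% in macrophage-like cells. Only 10 CD1 fibroblast-like cells were left. The 10 genes include *Gvin3*, and no count was made without it.

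T-like cells with a *Cd4* UMI were set beside those with a *Cd8a* or *Cd8b1* UMI. In NOD the 10 genes together had a log2 ratio of -0.04 (-0.09 to 0.01), *Cd4* over *Cd8*. For *Igtp*, *Irgm1*, *Irgm2*, *Gbp2* and *Gbp3* the interval also ran from below to above no difference, while other single genes differed. In NOD, *Iigp1* was at 202 CPM in 821 cells with *Cd4* and at 54.7 CPM in 429 cells with *Cd8*, a log2 ratio of 1.88 (1.65 to 2.12) within the same library. *Gbp4* and *Ifi47* were lower in the *Cd4* cells, with ratios of -0.50 (-0.66 to -0.34) and -0.47 (-0.63 to -0.31). *Gvin3* was at 689 and 761 CPM in the same cells. Cells with a *Foxp3* UMI, the mark of regulatory T cells, numbered 190 in NOD and held *Iigp1* at 286 CPM (259 to 314) and *Gvin3* at 873 CPM (826 to 922).

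Between the libraries, the 9 genes other than *Gvin3* had a log2 ratio of 0.43 (0.22 to 0.66) in *Cd4* cells and -0.09 (-0.32 to 0.14) in *Cd8* cells, where CD1 had 31 and 16 cells. *Iigp1* in CD1 was at 32.1 CPM in *Cd4* and 29.5 CPM in *Cd8* cells, with wide intervals (13.9 to 63.3 and 9.57 to 68.8). *Igtp* in *Cd8* cells was at 126 CPM in NOD and 236 CPM in CD1, a ratio of -0.90 (-1.38 to -0.40), the only ratio of the 10 genes in these T-like subsets whose whole interval lay below 0. That CD1 value rests on 40 UMIs in 16 cells. Of the 89 *Igtp* UMIs in all CD1 T-like cells, 18 lay in 1 cell, whose subset was not looked up. Over all T-like cells the *Igtp* ratio went from -0.07 to 0.10 when each cell had the same weight.

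**Figure D4:**
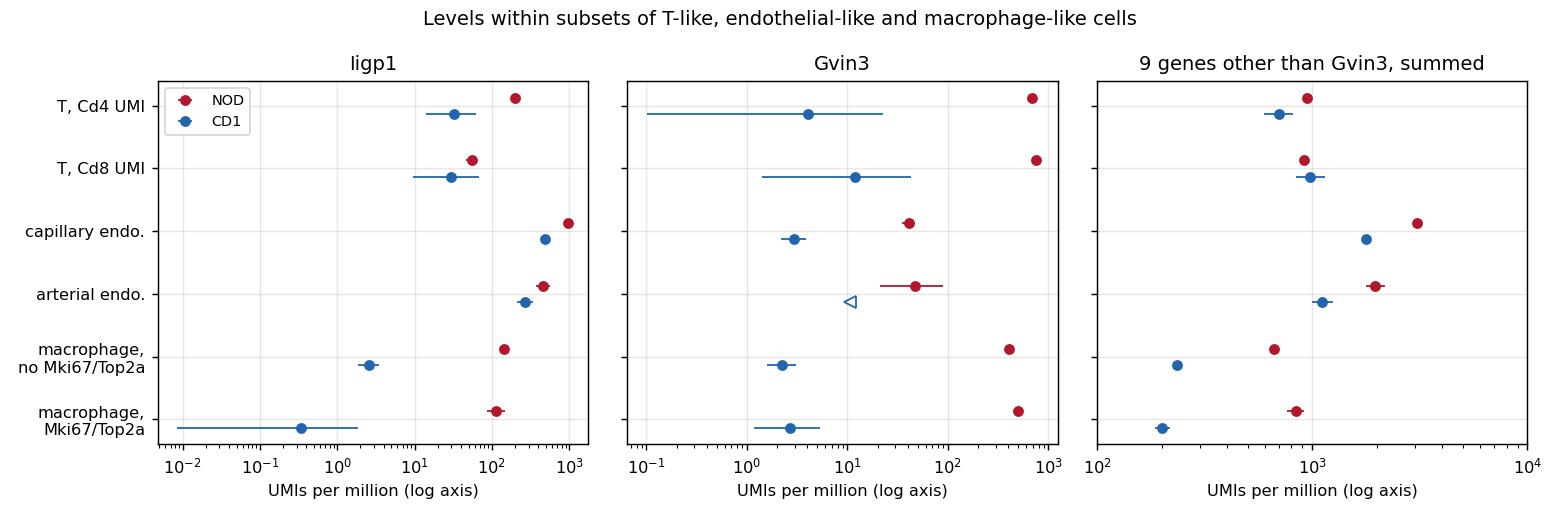
Levels in CPM (log axes that differ between panels) of *Iigp1*, *Gvin3* and the other 9 genes summed, in subsets of T-like, endothelial-like and macrophage-like cells of NOD (red) and CD1 (blue), with exact 95% Poisson intervals; the open triangle stands at 3 UMIs. *Iigp1* was at 202 CPM in NOD *Cd4* and 54.7 CPM in NOD *Cd8* cells, while *Gvin3* was at 689 and 761 CPM.

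Endothelial-like cells were split by vessel markers into capillary (716 NOD and 2091 CD1 cells) and arterial (30 and 50 cells) subsets, while 329 NOD and 754 CD1 cells had no subset, 2 and 4 were venous and 0 and 1 lymphatic. The sum of the 10 genes was 3116 and 1774 CPM in capillary cells and 2009 and 1112 CPM in arterial cells, so capillary cells held more in both libraries. Cells with no subset held 2512 and 1294 CPM, a log2 ratio of 0.96 (0.89 to 1.03). The ratio was 0.81 (0.78 to 0.84) in capillary and 0.85 (0.63 to 1.07) in arterial cells, with overlapping intervals. Macrophage-like cells with *Mki67* or *Top2a*, genes of dividing cells, held the genes at 1336 and 203 CPM and the others at 1063 and 238 CPM. The ratio was 2.72 (2.56 to 2.87) in the dividing and 2.16 (2.10 to 2.22) in the other macrophage-like cells, so both groups were higher in NOD.

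*Ifng* itself was at 108 and 35.2 CPM in NOD and CD1 T-like cells, a log2 ratio of 1.62 (1.01 to 2.30), and at 103 and 53.1 CPM in NK-like cells, 0.96 (0.71 to 1.21). *Ifngr1* was lower in NOD macrophage-like cells, 225 and 310 CPM, a ratio of -0.46 (-0.56 to -0.36), and its ratio was -0.07 (-0.17 to 0.02) in endothelial-like and -0.06 (-0.50 to 0.39) in fibroblast-like cells. *Ifngr2* had a ratio of -0.20 (-0.31 to -0.10) in macrophage-like and -0.47 (-0.65 to -0.29) in endothelial-like cells.

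*Irf1*, a factor induced by interferon-gamma, was at 133 and 82.6 CPM in NOD and CD1 macrophage-like cells, a log2 ratio of 0.69 (0.54 to 0.83), and at 186 and 169.6 CPM in endothelial-like cells, 0.13 (0.03 to 0.23). The ratio was 1.00 (-0.06 to 2.27) in fibroblast-like, 0.78 (0.38 to 1.19) in T-like and 0.45 (0.28 to 0.62) in NK-like cells, so the interval held 0 only in fibroblast-like cells among these 5 lineages.

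**Figure D5:**
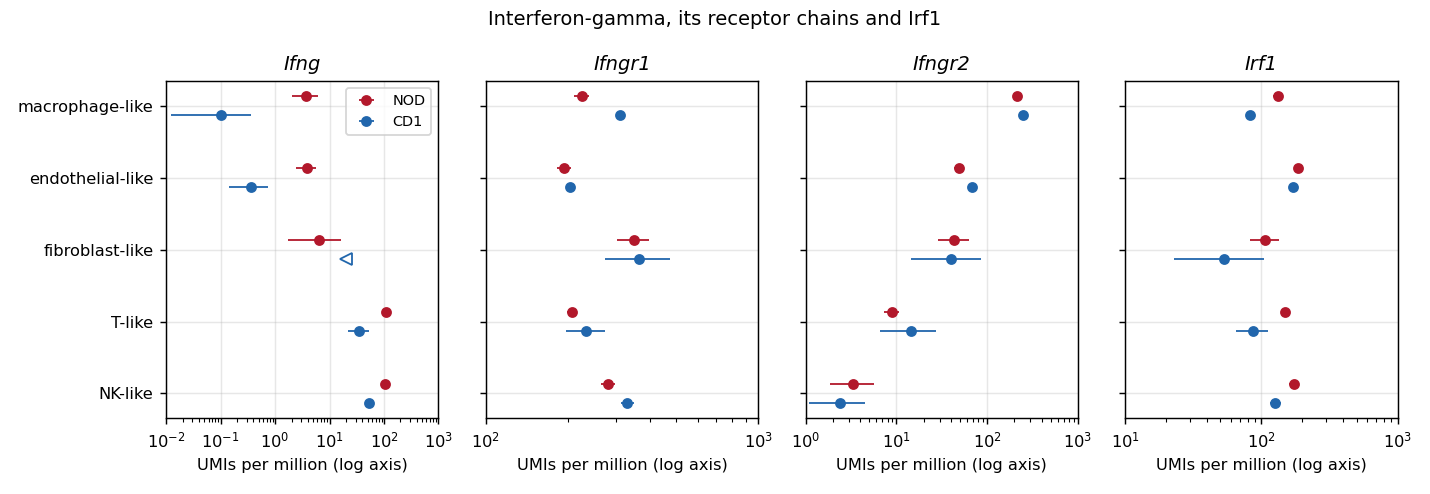
Levels in CPM (log axes that differ between panels) of *Ifng*, the receptor chains *Ifngr1* and *Ifngr2*, and *Irf1* by lineage in NOD (red) and CD1 (blue), with exact 95% Poisson intervals; the open triangle stands at 3 UMIs. *Ifngr1* was lower in NOD macrophage-like cells (225 against 310 CPM), while *Irf1* was higher there (133 against 82.6 CPM).

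Relatives of the 10 genes were counted in the same way. Of 19 other GTPases of these families found in the files, 10 of the 15 with at least 20 UMIs were at least 2-fold higher in NOD macrophage-like cells, 9 of 18 in endothelial-like, 6 of 8 in fibroblast-like, 3 of 18 in T-like and 1 of 11 in NK-like cells, where the shares of all genes were those given above, and 1 was 2-fold lower, *Gbp10* in T-like cells (3.16 and 6.40 CPM, 4 CD1 UMIs). In macrophage-like cells the highest were *Gm4841* (5.58 and 0.253 CPM), *F830016B08Rik* (16.5 and 0.759 CPM) and *Gbp6* (19.9 and 1.42 CPM), and *Gm4841* also led in endothelial-like cells (18.3 and 0.616 CPM).

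Other genes induced by interferon-gamma were counted next. Of 17 found, 4 of 16 with enough UMIs were at least 2-fold higher in macrophage-like and in endothelial-like cells, 10 of 14 in fibroblast-like, 1 of 16 in T-like and 1 of 15 in NK-like cells, against 8.06%, 8.07%, 16.5%, 9.47% and 5.75% of all genes. In T-like and NK-like cells the list was thus near the background. Its medians were 0.59, 0.39, 1.44, 0.24 and 0.06, beside 0.06, 0.07, 0.16, 0.07 and 0.03 over all genes. The chemokine *Cxcl9*, which draws activated T cells, was at 331 and 33.2 CPM in macrophage-like and 31.6 and 3.75 CPM in endothelial-like cells. The immunoproteasome subunit *Psmb10* was at 157 CPM in NOD and 198 CPM in CD1 endothelial-like cells. Its partners *Psmb8* and *Psmb9* had ratios of -0.08 (-0.14 to -0.01) and -0.09 (-0.18 to -0.01) there. The class II chaperone *Cd74* was lower in NOD macrophage-like cells, 9787 against 15796 CPM, and in fibroblast-like cells, 135 against 703 CPM. Macrophage markers summed to 657 CPM in NOD and 942 CPM in CD1 fibroblast-like cells, with 6 of 7 detected in each and *Mrc1* at 0, and their part in the fibroblast-like values was not tested.

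Genes known best as targets of type I interferon made another list. Of 18, 16 of 18 with enough UMIs were at least 2-fold higher in macrophage-like, 12 of 17 in endothelial-like, 11 of 12 in fibroblast-like, 9 of 17 in T-like and 12 of 17 in NK-like cells, against 8.06%, 8.07%, 16.5%, 9.47% and 5.75% of all genes. The medians were 1.58, 1.29, 1.51, 1.07 and 1.22, and none was 2-fold lower. *Rsad2*, an antiviral enzyme, was at 84.5 and 13.9 CPM in macrophage-like and 338 and 81.6 CPM in endothelial-like cells, and *Ifi44* at 20.4 and 0.556 CPM in macrophage-like cells. The 10 GTPase genes respond to both kinds of interferon, and these counts do not separate them.

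Over the 8 sums of macrophage-like, endothelial-like, T-like and NK-like cells in both libraries, the genes most like the mean of the 10 among 18347 were *Gadd45a* (Pearson r of 0.968), *Ifit1* (0.964), *Msl1* and *Parp10* (0.959 each) and *Camsap1* (0.95). The r describes 8 points that share libraries and lineages, and *Gadd45a* ranged only from 2.38 to 6.75 CPM. *Irgm1* (0.953) and *Iigp1* (0.932) lay closest to the mean among the 10 genes and *Gvin3* furthest (0.325), where each of the 10 is itself part of that mean. *Ifit1*, a type I interferon target, was at 105 and 37.7 CPM in endothelial-like and 27.9 and 6.93 CPM in macrophage-like cells.

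Smaller classes add values from few cells. The 31 NOD dendritic-like cells held *Gvin3* at 343 CPM (290.4 to 403) and *Irgm1* at 93.8 CPM (67.3 to 127), which are given without a CD1 value since CD1 had 3 such cells. The 49 NOD and 12 CD1 plasma-like cells held *Gvin3* at 404 CPM (364 to 447) and 9.80 CPM (3.18 to 22.9). *Gbp4* and *Gbp2* were lower in the NOD plasma-like cells, at 42.0 CPM (29.9 to 57.4) against 109.8 CPM (82.9 to 143) and at 7.54 CPM (3.03 to 15.5) against 31.4 CPM (17.9 to 50.9). *Gbp2* rested on 7 and 16 UMIs. *Iigp1* was higher in NOD, at 25.8 CPM (16.6 to 38.5) against 3.92 CPM (0.47 to 14.2). The intervals of *Igtp*, *Irgm1*, *Irgm2*, *Gbp3*, *Gbp7* and *Ifi47* overlapped. All 10 genes summed to 624 CPM in NOD, where *Gvin3* held 375 of 579 UMIs, and to 280 CPM in CD1. The 12 NOD and 13 CD1 mural-like cells held 31 and 3 UMIs of the 10 genes. The unplaced cells held the 10 genes at 1462 CPM in NOD and 550.2 CPM in CD1.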

How the data were processed

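The authors deposited UMI counts per gene and barcode, made with Cell Ranger 8.0.0 per the file headers, without a cell filter; the submitters' processing notes list GRCm39, Seurat 5.0.1 and R 4.3.1. The labels give 3 mice per library and a Liberase and dispase digest, whereas the study's methods give another number and another enzyme mix. From the counts, cells, lineages, CPM and intervals were computed with Python 3.11.15, scipy 1.17.1 and scanpy 1.11.5 (Scrublet and clusters, for alternatives). The libraries held 52790319 (NOD) and 56483149 (CD1) UMIs. Outside the Scrublet alternative no doublet caller was used. Cells in which no lineage reached the marker limits stayed unplaced, but placed cells could still hold some markers of other lineages. A CD1 count of 0 was set at 3 UMIs for bounds. With 1 library per strain no count model was run and no test was made. The interval code was tested on simulated data.

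The 10 genes, the gene lists and the markers were chosen with earlier results of these data known, and the marker limits for lineages after the matrices were read. Named beside the 10 genes were *Ifng*, *Ifngr1*, *Ifngr2* and *Irf1*, the 3 highest and 3 lowest ratios of each list, and the 5 genes most alike; 1 further gene of the rule is not reported here. *Gvin-ps6* and the subsets of T-like cells were named after their values were seen. Promoters of *Iigp1*, *Gbp4* and *Gvin3* were not used here, and no gene is placed on the build of the counts.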

Additional observations from a re-analysis of the deposited data

Results flagged for a closer look

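Barcodes with 10 to 100 UMIs, which hold free RNA and no cell, were outside the comparisons. For 7 of the 10 genes their level in the NOD library was above that in the CD1 library and the 95% Poisson intervals did not overlap, as was so for 17.7% of the 13264 genes with at least 20 UMIs in these barcodes. *Gvin3* was at 292 CPM in NOD and 2.08 CPM in CD1, *Gbp7* at 159.6 and 111 CPM, *Ifi47* at 122 and 46.3 CPM, *Iigp1* at 121 and 92.3 CPM, *Igtp* at 104 and 46.3 CPM, *Irgm1* at 87.8 and 48.4 CPM, and *Irgm2* at 47.4 and 30 CPM. These levels came from 64931 NOD barcodes with 4899181 UMIs and 70666 CD1 barcodes with 3370431 UMIs. The remaining *Gbp2*, *Gbp3* and *Gbp4* had overlapping intervals, with 79.6, 43.1 and 149.6 CPM in NOD beside 63.8, 49.3 and 148 CPM in CD1. No group held the 4 samples that a check for outlying samples needs.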

How the results depend on the processing

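No paired analysis was possible because each strain has 1 library, and leaving out a library leaves no comparison. Over the alternatives tried, the log2 ratio of the summed level stayed above 0, between 1.57 and 2.29 in macrophage-like, 0.73 and 0.95 in endothelial-like, 3.55 and 4.70 in fibroblast-like, 0.40 and 1.35 in T-like and 0.31 and 1.30 in NK-like cells. Leaving out *Gvin3*, chosen after seeing the data, gave 1.57 in macrophage-like, 0.40 in T-like and 0.31 in NK-like cells. Giving each cell the same weight gave 1.80, 3.55 and 1.35 in macrophage-like, fibroblast-like and T-like cells, with 4, 8 and 5 genes at least 2-fold higher, and turned *Irgm1* in fibroblast-like cells to -0.56. Median-of-ratios scaling gave 2.16 in macrophage-like and 0.73 in endothelial-like cells, and lineages from clusters 0.74 in endothelial-like cells. Free RNA taken out by secretory genes gave 0.95 in endothelial-like cells, turned *Gvin3* there to -2.23, and left 1 gene past 2-fold in NK-like cells, as did free RNA by markers of other lineages (added later), which gave 4.70 in fibroblast-like cells. By secretory genes no value was had for macrophage-like cells, since the estimate for NOD came to 177% of their UMIs. Scrublet left 58 NOD and 8 CD1 fibroblast-like cells, with 6 genes past 2-fold and a lower bound of -0.24 for *Gvin3*. The copies, and lineage limits of 60% and 90% of marker UMIs, were also added later. The cause of these shifts was not tested. Depth limits the CD1 side of fibroblast-like cells, where 29 UMIs of the 10 genes were counted.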
